A study of Mus musculus with 2 samples.

Results

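The respiratory chain genes of both genomes were followed here in colonic epithelial cells with and without Mettl14. The 95 genes were chosen by symbol among the 17829 genes of the deposited table. They comprise nuclear genes whose symbols start with Nduf, Uqcr, Cox4 to Cox8 or Atp5, the succinate dehydrogenase genes Sdha to Sdhd, and the protein-coding genes of mitochondrial DNA, without assembly factors or pseudogenes. Of these, 82 were nuclear and 13 mitochondrial. By complex, the nuclear genes numbered 36 for complex I, 4 for complex II, 8 for complex III, 19 for complex IV (with Ndufa4 and Ndufa4l2) and 15 for complex V. The mitochondrial genes numbered 7, 0, 1, 3 and 2 in the same order.

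Oxidative phosphorylation passes electrons from NADH (complex I) and succinate (complex II) through complex III to oxygen at complex IV, and ATP synthase (complex V) uses the resulting proton gradient. The complexes other than complex II are built from subunits of both genomes, and the mitochondrial subunits form the membrane core of each. Mitochondrial mRNAs are cut out of long transcripts that cover nearly a whole strand, so neighbouring genes share their synthesis, while each mature mRNA has a stability of its own. Colonocytes draw much of their energy from oxidation of bacterial butyrate in mitochondria.

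Live EpCAM+ cells of the colon of C57BL/6 mice were profiled by 10x 3' single-cell RNA sequencing in 2 libraries, 1 of genotype Mettl14 WT and 1 of genotype Mettl14 KO. Mettl14 is a subunit of the complex that writes m6A on RNA. The series text gives 2 weeks without saying from when. The labels name neither the Cre driver or the exons lost nor how many animals were pooled.

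The WT library held 4210 cells with 60205658 UMIs and the KO library 3653 cells with 37635762 UMIs, at medians of 12094 and 9119 UMIs per cell. They shared 2 cell barcodes. In both, some cells carried at least 3 Xist UMIs without Y-linked ones (1689 WT and 1696 KO cells) and others the reverse (1540 and 996), so each library holds cells of both sexes. Mettl14 itself had 632 UMIs in the WT and 201 in the KO library, a log2 ratio of −0.97 (95% interval −1.21 to −0.74), and its 3' tag may lie outside the deleted part. Epcam, the sorting marker, was seen in 97.8% of WT and 99.2% of KO cells. By their markers, a goblet-like identity fitted the deposited clusters 1 and 2, while cluster 3 was cycling-like, cluster 4 colonocyte-like and cluster 5 enteroendocrine-like. Cluster 0 was left unnamed, since its leading genes were pancreatic enzyme genes. The 11 pancreatic markers summed to 6905 CPM in WT and 2.68 CPM in KO cells of cluster 0, with 8 at 0 in its KO cells. They made up at least 1% of the UMIs in 33 WT and 0 KO cells. Outside cluster 0 they were also seen, at 334 CPM in WT and 94.1 CPM in KO cells of cluster 1, with 7 at 0 in its KO cells. Cluster 6 had mostly stromal leading genes, with S100a8 and S100a9 also among its top 10. It held 31 KO cells and was left out of the comparisons of clusters 0 to 5.

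Levels are UMI counts summed over the cells of a library and divided by the library's total, in counts per 1000000 UMIs (CPM). A ratio is log2 of the KO over the WT level, and the range in brackets after it is its 95% interval, which covers counting error only. With 1 library per genotype no test was possible, and genotype and library cannot be told apart. A gene was counted as higher or lower when it was at least 1.5-fold apart with an interval that excludes equal levels. Genes with at least 50 UMIs over both libraries were measured, which held for 79 nuclear and all 13 mitochondrial genes. Among all 13334 measured genes, 16.7% were higher and 16.2% lower in the KO library. The corresponding shares were 15.4% and 9.47% of the 6249 genes with at least 20 CPM in a library.

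Coding ends of 4 mitochondrial genes are shown first, because a 3' library counts the end of a transcript. The mRNA ends themselves were not mapped, so these need not be the counted bases. mt-Nd1 and mt-Nd2 had higher, mt-Co1 a lower and mt-Nd3 a nearly 1.5-fold higher level in the KO library. The coding end of mt-Nd4l, also higher, lies in the overlap with mt-Nd4 printed after these 4 stretches. They are the last 45 coding bases of mt-Nd1 (chrM:3663-3707), mt-Nd2 (chrM:4907-4951), mt-Co1 (chrM:6828-6872) and mt-Nd3 (chrM:9762-9806), all on the plus strand of GRCm38, with the stop codon in capitals.

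mt-Nd1: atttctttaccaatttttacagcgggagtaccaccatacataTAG

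mt-Nd2: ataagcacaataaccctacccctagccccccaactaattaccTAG

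mt-Co1: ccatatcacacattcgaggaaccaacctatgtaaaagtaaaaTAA

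mt-Nd3: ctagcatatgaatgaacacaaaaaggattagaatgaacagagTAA

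Gene models on the same strand overlap by more than 1 base at 2 places, mt-Atp8 with mt-Atp6 (chrM:7915-7981 around the overlap) and mt-Nd4l with mt-Nd4 (chrM:10147-10193). The shared 43 and 7 bases are in capitals. Each of these pairs lies on 1 mRNA, so the split of its UMIs between the gene symbols is uncertain.

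mt-Atp8 and mt-Atp6: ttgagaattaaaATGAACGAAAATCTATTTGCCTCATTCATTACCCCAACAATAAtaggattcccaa

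mt-Nd4l and mt-Nd4: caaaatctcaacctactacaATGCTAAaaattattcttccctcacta

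The mitochondrial mRNAs did not shift as a block. By gene symbol, mt-Nd1, mt-Nd2 and mt-Nd4l of complex I were higher in the KO library and mt-Co1 of complex IV was lower. The other 9 lay within 1.5-fold. That made 3 higher and 1 lower of 13, beside the background of 16.7% higher and 16.2% lower. Counts this small do not set the mitochondrial genes apart from that background. The sum of all 13 genes was nearly level, at 124312 CPM in the WT and 121057 CPM in the KO library (−0.04). The largest share of a cell's UMIs that these genes took was just under 20% in both libraries. The sum and the balance of the genomes therefore describe only cells below that share. Whether cells above it were filtered out before deposit is not given in the sources used here.

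The mt-Nd genes encode the membrane arm of complex I, through which it pumps protons. mt-Nd2 (chrM:3914-4951) stood at 3298 CPM in the WT and 5976 CPM in the KO library (0.86, 0.85 to 0.87). Its upstream neighbour mt-Nd1 (chrM:2751-3707) stood at 5443 and 8619 CPM (0.66, 0.66 to 0.67). For mt-Nd4l (chrM:9877-10173) the levels were 413 and 696 CPM (0.75, 0.73 to 0.78). These 3 complex I gene symbols were therefore between 1.5-fold and 2-fold higher in the KO library, and mt-Nd4l is not a separate mRNA.

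mt-Nd3, directly upstream of mt-Nd4l, stood at 1414 and 2084 CPM (0.56, 0.55 to 0.57), just inside 1.5-fold. mt-Nd5 had 824 CPM in the WT and 1032 CPM in the KO library (0.32, 0.31 to 0.34). mt-Nd4, which shares its mRNA with mt-Nd4l, had 6038 and 6829 CPM (0.18, 0.17 to 0.19), so the 2 gene symbols of this mRNA differed in their ratio. Most UMIs of this mRNA were counted as mt-Nd4, so the ratio of mt-Nd4l is not that of the mRNA. The only member on the other strand, mt-Nd6, was at 58.8 CPM in the WT and 45.4 CPM in the KO library (−0.37, −0.46 to −0.29). All mitochondrial complex I genes but mt-Nd6 thus had higher levels in the KO library.

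mt-Co1 encodes the catalytic subunit of cytochrome c oxidase, where oxygen is reduced. It lies at chrM:5328-6872, downstream of mt-Nd2 on the same strand. Its level was 23786 CPM in the WT and 14506 CPM in the KO library (−0.71, −0.72 to −0.71). mt-Co2, which carries the copper site that takes electrons from cytochrome c, stood at 18601 and 18728 CPM (0.01). mt-Co3, the third core subunit, stood at 25787 and 22287 CPM (−0.21). The 3 oxidase mRNAs thus ranged from −0.71 to 0.01 while coming from the same strand.

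mt-Cytb, the cytochrome b subunit of complex III, had 12506 CPM in the WT and 12909 CPM in the KO library (0.05, 0.04 to 0.05). The proton channel subunit mt-Atp6 of ATP synthase had 26071 and 27260 CPM (0.06, 0.06 to 0.07). Its partner mt-Atp8 had 71.8 and 85.3 CPM (0.25, 0.18 to 0.31). The direction of mt-Co2, mt-Cytb and mt-Atp6 turned when mitochondrial and ribosomal protein genes were left out of the scaling, so these 3 have no stable side.

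**Figure D1:**
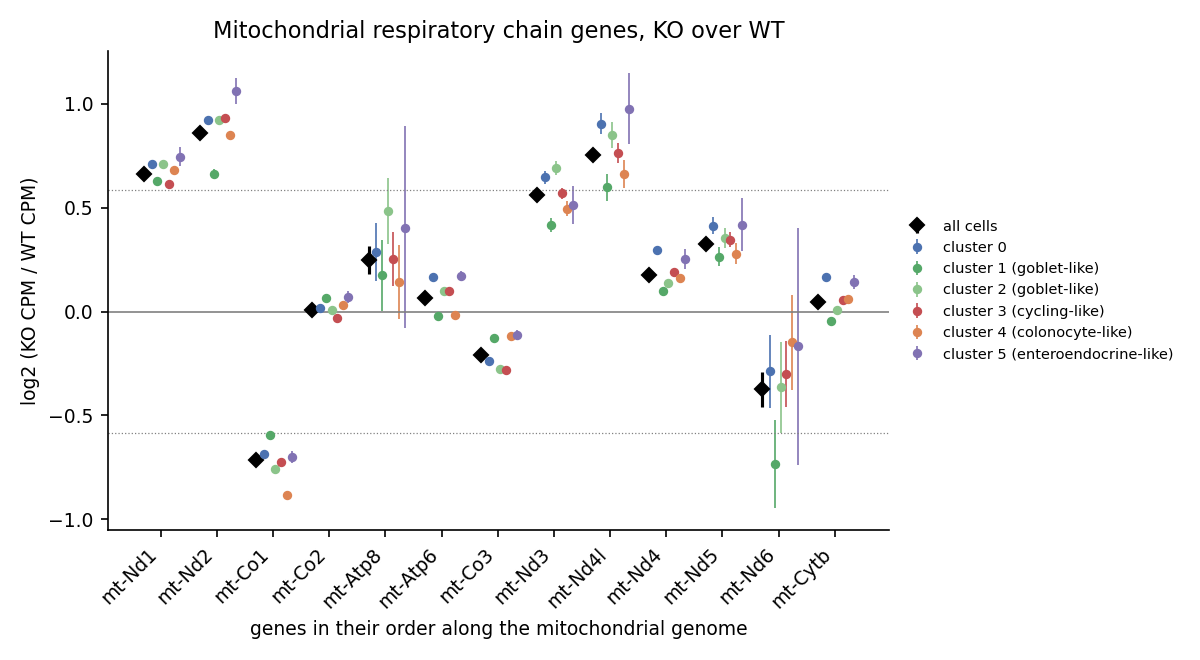
Log2 of KO over WT CPM (vertical axis) for the 13 mitochondrial genes in genome order (horizontal axis), over all cells (black diamonds) and in clusters 0 to 5 (coloured points), with bars for 95% counting intervals and dotted lines at 1.5-fold. mt-Nd1, mt-Nd2 and mt-Nd4l lie above the upper line and mt-Co1 below the lower line in each cluster.

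These 4 genes were past 1.5-fold on the same side in each of clusters 0 to 5. Of the other 9, mt-Nd3 was also higher in clusters 0 (0.65) and 2 (0.69) and mt-Nd6 lower in cluster 1 (−0.73). In single clusters, 13.1% to 19.9% of all measured genes were higher and 9.76% to 16.8% lower. The share of all genes past 1.5-fold in every cluster was not computed. mt-Co1 was lower in all 6, from −0.59 in goblet-like cluster 1 to −0.88 in colonocyte-like cluster 4. mt-Nd2 was higher in all 6, from 0.66 in cluster 1 to 1.06 in enteroendocrine-like cluster 5. mt-Nd1 ranged from 0.62 to 0.75 and mt-Nd4l from 0.60 to 0.98. Without a fold threshold, the interval was above equal levels in each cluster for 6 of the 13 genes (mt-Nd1, mt-Nd2, mt-Nd3, mt-Nd4, mt-Nd4l and mt-Nd5) and below for 2 (mt-Co1 and mt-Co3). Of all 6076 genes measured in each cluster, 12.5% and 8.33% met these conditions. Intervals this narrow reflect the large counts of mitochondrial mRNAs.

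Within single cells, the make-up of the mitochondrial mRNA pool differed widely between the libraries. mt-Co1 made up a median of 17.3% of a WT cell's mitochondrial mRNA UMIs (quartiles 15.1% and 20.7%) and 10.8% of a KO cell's (9.09% and 13.2%). Of the KO cells, 93.7% lay below the WT median, and 0.451% of WT cells lay below the KO median. mt-Nd1 and mt-Nd2 together made up a median of 7.03% in WT cells (6.19% and 7.77%) and 11.9% in KO cells (10.2% and 13.6%). The quartile ranges of the libraries did not overlap for either measure. Cells of 1 library are not replicates, so these shares describe the spread between cells only.

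**Figure D2:**
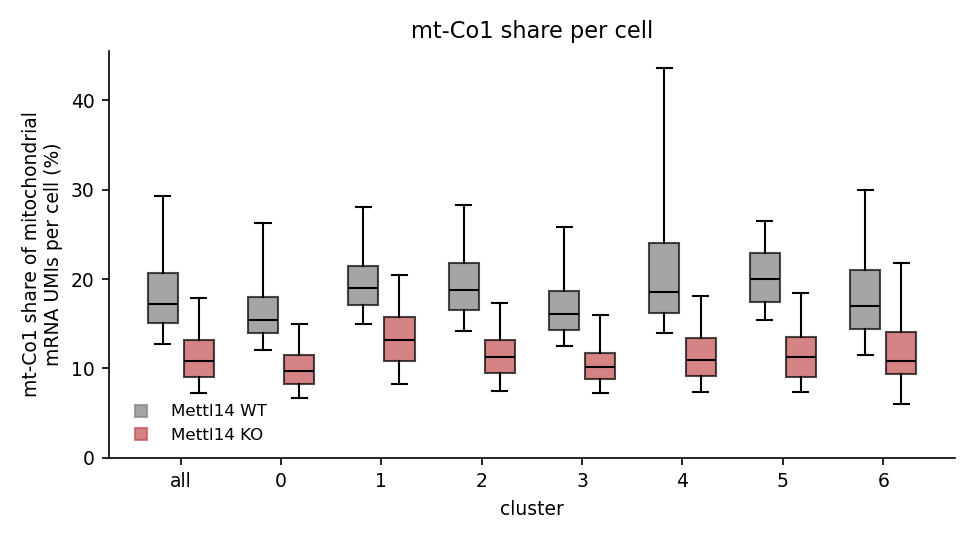
mt-Co1 UMIs as a percentage of all mitochondrial mRNA UMIs in a cell (vertical axis), for all cells and for each cluster (horizontal axis), in the WT (grey) and KO (red) library. Boxes span the quartiles with the median as a line and whiskers span the 5th to 95th percentiles; over all cells the medians are 17.3% and 10.8%.

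The median UMI count, the mitochondrial share and the ribosomal protein share (24.7% of WT and 21.9% of KO UMIs) also differed between the libraries. In 4 ranges of UMIs per cell, chosen after seeing the data, mt-Co1 stayed between −1.10 and −0.60 and mt-Nd2 between 0.74 and 1.22, both furthest from equal in cells under 5000 UMIs. In 4 ranges of mitochondrial share, mt-Co1 lay between −0.78 and −0.48 and mt-Nd2 between 0.77 and 1.10. In cells thinned to 3000 UMIs the ratios were −0.76 and 0.87. The direction was therefore the same at each depth and share examined.

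Nuclear respiratory chain transcripts were slightly more abundant in the KO library. They summed to 39467 CPM in the WT and 45200 CPM in the KO library (0.20, 0.19 to 0.20). The median ratio of the 79 measured genes was 0.09 (quartiles −0.04 and 0.27), beside −0.04 for the 13269 measured genes with counts in both libraries, and 53 of the 79 lay above 0. At 1.5-fold, 5 were higher (Uqcrq, Uqcrfs1, Uqcr10, Cox7a2l and Cox6a1), 2 were lower (Ndufa4l2 and Cox4i2) and 72 were neither. Both shares, 5 and 2 of 79, lie below the background of 16.7% and 16.2%. At a threshold of 5/4-fold, 15 nuclear genes were higher and 4 lower, and 5 and 2 mitochondrial genes, against 25.7% and 27.7% of all measured genes. At 2-fold, 1 nuclear gene was higher (Uqcrq), 2 were lower and no mitochondrial gene was called, against 8.22% and 8.27%.

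Complex III held the 3 nuclear genes furthest above equal levels. Uqcrq, a small subunit known as a ubiquinone-binding protein (chromosome 11, 53427922 to 53430831, minus strand), stood at 536 CPM in the WT and 1170 CPM in the KO library (1.13, 1.11 to 1.15). Uqcrfs1, the Rieske iron-sulfur protein that takes electrons from ubiquinol (chromosome 13, 30540308 to 30545362, minus strand), stood at 259 and 498 CPM (0.94, 0.91 to 0.97). Uqcr10, another small subunit (chromosome 11, 4701973 to 4704342, minus strand), stood at 866 and 1522 CPM (0.81, 0.80 to 0.83). Each was higher in all 6 clusters compared, Uqcrq between 0.94 and 1.40, Uqcrfs1 between 0.85 and 1.13 and Uqcr10 between 0.70 and 1.05.

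The other complex III subunits did not follow them. Uqcr11 had a ratio of 0.31, Uqcrb of 0.08 and the core protein gene Uqcrc1 of 0.04. The second core protein gene Uqcrc2 stood at −0.10. Uqcrh, the hinge protein that binds cytochrome c1, had 1229 CPM in the WT and 1111 CPM in the KO library (−0.15, −0.16 to −0.13). Cytochrome c1 itself (Cyc1) had 320 and 343 CPM (0.10, 0.07 to 0.13). Subunits of a single complex therefore spanned ratios from −0.15 to 1.13.

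Complex IV nuclear subunits had a median of 0.25, with 2 higher and 2 lower of 16 measured, against the background of 16.7% and 16.2%. Cox7a2l, known as a supercomplex factor of complexes III and IV (chromosome 17, 83501918 to 83517330, minus strand), stood at 375 CPM in the WT and 601 CPM in the KO library (0.68, 0.65 to 0.71). Its function in these mice and supercomplexes were not measured. Cox6a1 (chromosome 5, 115345642 to 115348981, minus strand) stood at 475 and 720 CPM (0.60, 0.58 to 0.63). Cox5a, a subunit on the matrix side, reached 1028 and 1454 CPM (0.50, 0.48 to 0.52), inside 1.5-fold. In all 6 clusters the interval of Cox6a1, Cox7a2l and Cox5a lay above equal levels, while mt-Co1 of the same complex lay below.

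Several complex IV subunits exist as isoforms, and the forms found in most tissues had ratios between 0.10 and 0.60. Cox4i1 stood at 1808 CPM in the WT and 2186 CPM in the KO library (0.27, 0.26 to 0.29), and Cox8a at 1873 and 2397 CPM (0.36, 0.34 to 0.37). Cox6b1 had a ratio of 0.27, Cox7b of 0.10, Cox7a2 of 0.10 and Ndufa4 of 0.28. The intervals of Cox4i1, Cox8a, Cox6b1 and Ndufa4 lay above equal levels in each of clusters 0 to 5.

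Isoforms known from particular tissues had few UMIs. Cox6b2, known from testis, had 1121 UMIs in the WT and 476 in the KO library (−0.56, −0.72 to −0.40), in 19.6% and 10.2% of cells. Cox7a1, the form of heart and muscle, had 2400 and 1583 UMIs (0.08, −0.02 to 0.17). Its ratio was −0.89 (−1.33 to −0.46) in cluster 0, −0.41 (−0.54 to −0.27) in goblet-like cluster 1 and 0.53 (0.32 to 0.74) in goblet-like cluster 2. The value of Cox7a1 over all cells thus pools clusters of opposite direction and depends on the cells each cluster held. Cluster 1, with the highest level (120 CPM in WT and 90.6 CPM in KO cells), held 14.4% of WT and 20.7% of KO cells. The difference between clusters and the part of this shift in the pooled value were not tested.

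Cox4i2 and Ndufa4l2, both known as hypoxia-responsive forms, were the only nuclear genes lower at 1.5-fold. Cox4i2 had 67 UMIs in the WT and 8 in the KO library (−2.39, −3.66 to −1.33). Ndufa4l2 had 71 and 8 UMIs (−2.47, −3.74 to −1.42). Of the WT UMIs, 44 of Cox4i2 and 59 of Ndufa4l2 lay in cluster 6, which held 117 WT and 31 KO cells. Its KO cells held 5 and 2 UMIs of these genes. Inside cluster 6 the interval of Cox4i2 included equal levels (−0.73, −2.42 to 0.61), while that of Ndufa4l2 did not (−2.47, −5.55 to −0.55). The make-up of this cluster also differed between the libraries. Its 6 immune markers summed to 1826 CPM in WT (1 at 0) and 91.9 CPM in KO cells (3 at 0). Its stromal markers summed to 8416 and 5215 CPM, and its 3 endothelial markers to 59.7 and 109 CPM. The part of this in these ratios was not tested. Outside that cluster both genes fell under the minimum of 50 UMIs, so no nuclear gene was called lower there. Cox4i2 had 23 WT and 3 KO UMIs left, a ratio about as large (−2.27, −4.65 to −0.54). Ndufa4l2 had 12 and 6 UMIs (−0.33, −2.03 to 1.19). With equal weight for clusters 0 to 5 the values were −0.14 and −0.50, but these use only the 3 and 2 clusters with UMIs in both libraries. The 6 stromal markers summed to 106 CPM in the WT and 17.2 CPM in the KO library, the 3 muscle markers to 7.67 and 1.20 CPM, with none of the 9 at 0. The part of these cells in other genes was not tested beyond leaving out cluster 6, after which Uqcrq stood at 1.12 and mt-Co1 at −0.71.

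The 3 unmeasured genes were isoforms with few UMIs. Cox6a2, the muscle form, had 2 UMIs in the WT and 14 in the KO library (a log2 ratio interval of 1.36 to 6.67). Cox8b had 6 UMIs in the WT and 0 in the KO library, 0.32 lower on the log2 scale with the KO library at a floor of 3 counts. That value leaves out the counting error of the 6 WT UMIs. The exact intervals of its share of cells with a UMI overlapped (WT 0.0386% to 0.277%, KO 0% to 0.101%), so no difference is shown. Cox7b2, known from testis, had 0 UMIs in the WT and 45 in the KO library. With the WT library at that floor it was 24.0-fold higher, a value that leaves out the counting error of the 45 UMIs. Its UMIs lay in 44 of 3653 KO cells (1.20%, exact interval 0.877% to 1.61%) and in 0 of 4210 WT cells, where a limit of 3 counts allows a share of cells with a UMI of up to 0.0713%. Of those UMIs, 33 lay in the goblet-like clusters 1 and 2 and 0 in the 151 enteroendocrine-like KO cells. The latter were 4.13% of the KO cells, so a count of 0 there shows no absence.

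Complex II, encoded by the nucleus alone and also an enzyme of the tricarboxylic acid cycle, had the lowest median of the 5 complexes (−0.19). Over all cells none of its 4 genes was past 1.5-fold, too few genes to set against the background of 16.7% and 16.2%. Sdha, the flavoprotein that oxidises succinate (chromosome 13, 74322254 to 74350280, minus strand), stood at 158 CPM in the WT and 121 CPM in the KO library (−0.39, −0.44 to −0.34). The membrane anchor gene Sdhd stood at 253 and 208 CPM (−0.28, −0.32 to −0.24). The iron-sulfur subunit gene Sdhb (−0.09, −0.14 to −0.04) and the second anchor gene Sdhc (0.03, −0.01 to 0.08) lay nearer to equal levels. Sdha was the only nuclear gene of 75 measured in each of clusters 0 to 5 whose interval lay below equal levels in each, from −0.60 in cluster 5 to −0.17 in cluster 4. Among all genes measured in each cluster 8.33% met this condition, so 1 of 75 lies below the background.

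Nuclear complex I genes had a median of 0.13. None of 36 passed 1.5-fold in either direction, against the background of 16.7% higher and 16.2% lower. Ndufa12, an accessory subunit, was the furthest above with 284 CPM in the WT and 403 CPM in the KO library (0.50, 0.47 to 0.53). Ndufs1, the large iron-sulfur subunit of the NADH-oxidising module, was the furthest below with 66.8 and 58.0 CPM (−0.20, −0.28 to −0.13). The 7 mitochondrial complex I genes had a median of 0.56. No nuclear complex I gene reached that value.

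Nuclear complex V genes had a median of −0.03. None of 15 passed 1.5-fold, against the background of 16.7% higher and 16.2% lower. Atp5l, a membrane subunit at the dimer interface, stood at 838 CPM in the WT and 1099 CPM in the KO library (0.39, 0.37 to 0.41). Atp5d, another subunit of the central stalk, had a ratio of 0.22 (0.19 to 0.24). Atp5c1, the central stalk subunit that turns inside the catalytic head, stood at 601 and 549.6 CPM (−0.13, −0.15 to −0.10). Atp5g1, Atp5g2 and Atp5g3, which encode the same mature ring subunit, had ratios of 0.00, 0.11 and 0.14. All 15 lay between −0.13 and 0.39.

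**Figure D3:**
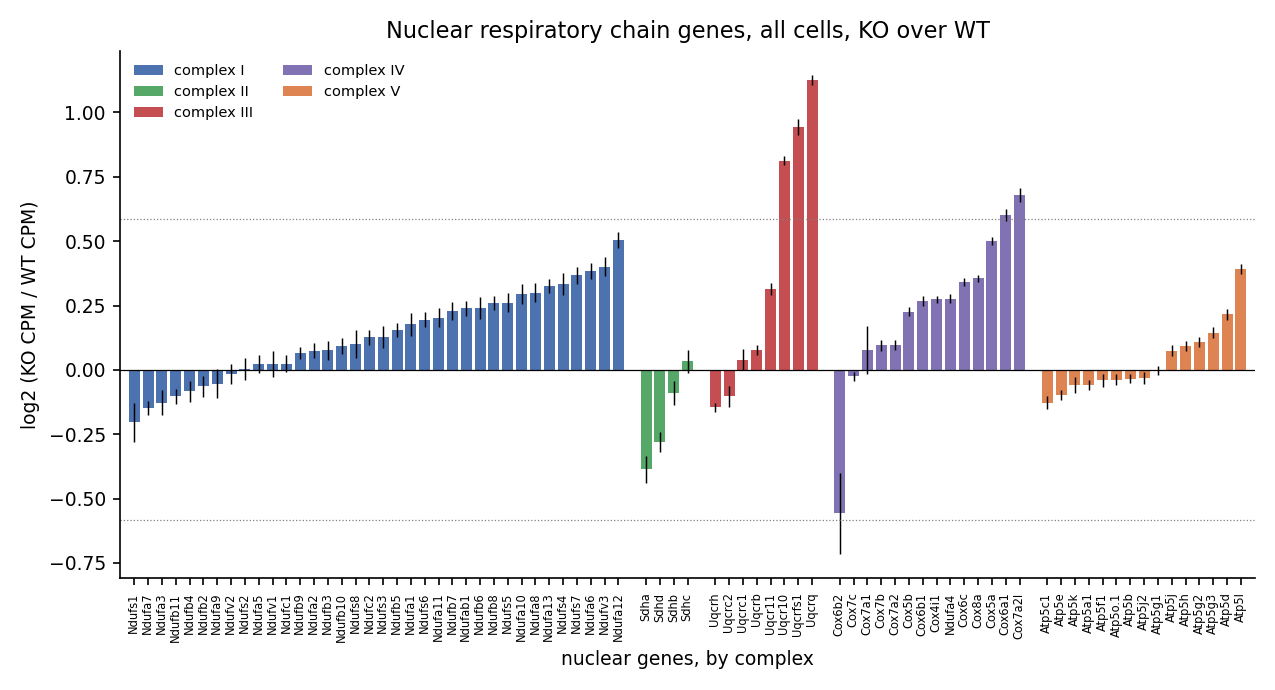
Log2 of KO over WT CPM over all cells (vertical axis) for the nuclear genes with at least 500 UMIs, grouped by complex and ordered within it (horizontal axis), with 95% counting intervals as bars and dotted lines at 1.5-fold; Cox4i2 and Ndufa4l2 fall under that count. Uqcrq, Uqcrfs1, Uqcr10, Cox7a2l and Cox6a1 lie above the upper line, complex II genes lie at or below 0.03, and complex V genes between −0.13 and 0.39.

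The promoters of nuclear respiratory chain genes often carry sites for the factors NRF1, ETS (GABP) and YY1. RefSeq windows of 300 bases (GRCm38.p6, 250 before to 50 after the start) matched 68 of the 82 nuclear genes, with 73 windows. The letters TGCGCA, a half-site of NRF1 that reads the same on both strands, occurred in 26.0% of these windows and 9.74% of all 21263 windows. This shorter pattern was chosen after the values of a longer NRF1 pattern in the same windows had been seen, so its shares are a description only. CCGGAAG, an ETS core, occurred on either strand in 21.9% and 11.6%, and AAGATGGC, a YY1-like core, in 13.7% and 3.05%. The ETS and YY1-like letters can overlap by AAG, and a match is a description of sequence only. Of the 4 windows of higher genes, 1 held the NRF1 letters, 1 the ETS letters and 0 the YY1-like letters.

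Parts of these windows that lie upstream of each start are shown for 3 of the higher genes and for Sdha, the gene lower in each cluster. They are Uqcr10 (chr11:4704345-4704494), Uqcrfs1 (chr13:30545363-30545466), Cox6a1 (chr5:115348982-115349108) and Sdha (chr13:74350281-74350390), all on the minus strand and written 5′ to 3′. NRF1 half-sites are in capitals, with 1 match each in Cox6a1 and Sdha.

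Uqcr10: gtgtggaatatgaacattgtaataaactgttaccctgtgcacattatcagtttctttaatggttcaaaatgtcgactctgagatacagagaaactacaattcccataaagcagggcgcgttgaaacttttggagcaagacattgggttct

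Uqcrfs1: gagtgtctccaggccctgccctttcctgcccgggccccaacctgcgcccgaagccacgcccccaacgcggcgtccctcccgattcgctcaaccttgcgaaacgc

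Cox6a1: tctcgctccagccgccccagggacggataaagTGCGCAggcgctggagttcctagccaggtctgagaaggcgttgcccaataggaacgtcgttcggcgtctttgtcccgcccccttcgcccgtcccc

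Sdha: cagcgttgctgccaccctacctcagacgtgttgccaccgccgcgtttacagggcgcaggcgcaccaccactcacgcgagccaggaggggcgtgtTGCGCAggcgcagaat

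These letters thus stood before a gene that was higher and before Sdha, which was below equal levels but inside 1.5-fold over all cells. They were not found in the printed stretches of Uqcr10 and Uqcrfs1.

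The balance of the genomes moved toward the nuclear side in the KO library. Mitochondrial over nuclear respiratory chain UMIs came to 3.15 in the WT and 2.68 in the KO library, a log2 change of −0.23. The summed ratio was lower in the KO cells of each of clusters 0 to 5. It went from 3.40 to 2.46 in colonocyte-like cluster 4 (−0.47), from 3.09 to 2.61 in cycling-like cluster 3 (−0.24) and from 3.23 to 2.80 in cluster 0 (−0.21). In the goblet-like clusters 1 and 2 it changed by −0.14 and −0.16, and in enteroendocrine-like cluster 5 by −0.10. By the median gene the balance pointed the other way, at 0.18 for mitochondrial and 0.09 for nuclear genes. mt-Co1 alone made up 19.1% of the mitochondrial UMIs of the WT and 11.98% of those of the KO library.

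**Figure D4:**
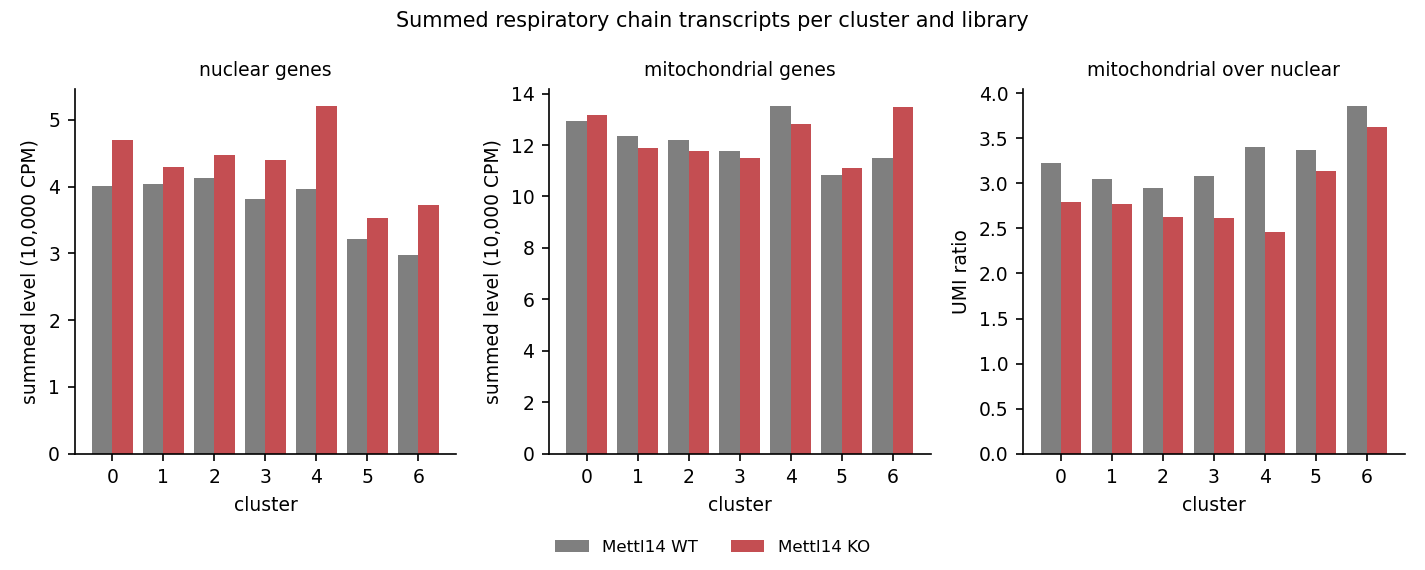
Summed levels of nuclear genes (left, in 10,000 CPM), of mitochondrial genes (middle, in 10,000 CPM) and their UMI ratio (right) in each cluster (horizontal axis), in the WT (grey) and KO (red) library; cluster 6 holds 31 KO cells. The nuclear bars are higher and the ratio lower in the KO library in each cluster, with the widest gap in ratio in cluster 4. In cluster 6 the per-cell median of the ratio went the other way (4.10 in WT and 4.18 in KO cells).

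Colonocyte-like cluster 4 differed most in its nuclear genes. Their sum was 39718 CPM in WT and 52029 CPM in KO cells, and their median ratio 0.31, beside −0.0050 for all genes measured there. Of 77 measured nuclear genes, 72 lay above 0, 8 were higher and 0 lower at 1.5-fold, against 16% and 12.7% of all measured genes in this cluster. Besides Uqcrq, Uqcrfs1, Uqcr10 and Cox6a1, the higher genes were Ndufa12 (0.70), Cox5a (0.67), Ndufa4 (0.59) and Ndufa11 (0.59). The 8 colonocyte markers summed to 587 CPM in WT and 489 CPM in KO cells of the cluster and the 7 cycling markers to 138 and 251 CPM, with none of either at 0. The part of that shift in the result was not tested.

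In the other clusters the nuclear median lay nearer to 0. It was 0.15 in cluster 0, with 5 higher and 1 lower gene, where 19.9% and 12.9% of all measured genes were called. In goblet-like cluster 1 it was −0.02, with 5 higher and 1 lower (background 13.1% and 16.8%), and in goblet-like cluster 2 it was 0.03, with 4 and 1 (14.4% and 16.7%). In cycling-like cluster 3 it was 0.12, with 4 higher and 0 lower (17.5% and 11.7%). In enteroendocrine-like cluster 5 it was 0.04, with 4 higher and 2 lower (14.9% and 9.76%), the lower genes being Ndufs1 and Sdha. The members called in these clusters were largely those called over all cells: Uqcrq, Uqcrfs1 and Uqcr10 were higher in all 6 clusters, Cox7a2l in 5 and Cox6a1 in 3.

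With no fold threshold, 18 of the 75 nuclear genes measured in each cluster had an interval above equal levels in all 6, against 12.5% of all genes. Besides those named they include Atp5d, Cox6c, Ndufa6, Ndufa13 and Ndufv3. Narrow intervals at high counts make this condition easier to meet, and the background of 12.5% was not matched for level. The medians of the mitochondrial genes were 0.29, 0.10, 0.14, 0.19, 0.14 and 0.25 in clusters 0 to 5. They exceeded the nuclear median except in cluster 4. The nuclear medians of clusters 1, 2 and 5 changed sign under some alternatives.

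The machinery around the chain was described with lists of genes for assembly, import, protein synthesis and control, whose counts are read against the background of 16.7% higher and 16.2% lower. Of 46 measured assembly factors, 16 were higher and 2 lower, with a median of 0.40. Coa7, a complex IV assembly factor, stood at 21.4 CPM in the WT and 80.6 CPM in the KO library (1.91, 1.82 to 2.01). Ndufaf4, which helps to build complex I, stood at 58.4 and 215 CPM (1.88, 1.82 to 1.94). Sdhaf1, which helps to insert iron-sulfur clusters into complex II, stood at 62.8 and 158 CPM (1.33, 1.27 to 1.39), while Sdha and Sdhd had lower levels. The share of assembly factors that were higher was above the background of 16.7%.

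Mitochondrial ribosome genes were higher in 30 of 77 cases and lower in 1, with a median of 0.29. Mrpl43 stood at 88.8 CPM in the WT and 452 CPM in the KO library (2.35, 2.30 to 2.39), Mrpl46 at 40.7 and 177 CPM (2.12, 2.05 to 2.19) and Mrps34 at 95.4 and 338 CPM (1.82, 1.78 to 1.87). Import genes had a median of 0.26, with 5 higher, near the background share, and 0 lower of 24, led by Timm8a1 (1.32) and Timm17a (1.32). Electron carriers and exchangers had a median of 0.20, and 1 of 9 was higher, the ATP exchanger Slc25a4 (62.1 against 116 CPM, 0.91). Cytochrome c (Cycs) had a ratio of 0.43.

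Genes that keep, transcribe and process mitochondrial DNA and RNA had a median of −0.18, with 2 higher and 1 lower of 29. Ssbp1, which coats single-stranded mitochondrial DNA, was lower at 121 CPM in the WT and 76.2 CPM in the KO library (−0.66, −0.73 to −0.60). Mterf4, which acts in mitochondrial ribosome assembly, was higher (14.7 against 38.3 CPM, 1.38), as was the elongation factor gene Tefm (9.35 against 17.6 CPM, 0.91). Tfam, which packages and transcribes mitochondrial DNA, had a ratio of −0.12 (−0.20 to −0.04). Lrpprc, which stabilises mitochondrial mRNAs, had 0.08 (−0.01 to 0.17).

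Tricarboxylic acid cycle genes had a median of 0.11, with none of 17 past 1.5-fold, and Suclg2, a succinyl-CoA ligase subunit one step before complex II, was the furthest from equal (197 against 133 CPM, −0.57). Of 15 regulators, 1 was higher (Nfe2l1, 0.62) and 1 lower (Myc, 37.7 against 17.4 CPM, −1.11), and Ppargc1a, a coactivator of mitochondrial genes, stood at −0.24 (−0.34 to −0.13). None of 12 stress and antioxidant genes passed 1.5-fold (median −0.02). Glycolysis genes had a median of 0.35 with 5 higher and 0 lower of 16, such as Gapdh (1012 against 1671 CPM, 0.72) and the glucose transporter gene Slc2a1 (19.1 against 33.3 CPM, 0.80). In enteroendocrine-like cluster 5 their median was −0.15, with 0 higher and 3 lower of 13, against 14.9% and 9.76% of all genes measured there.

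**Figure D5:**
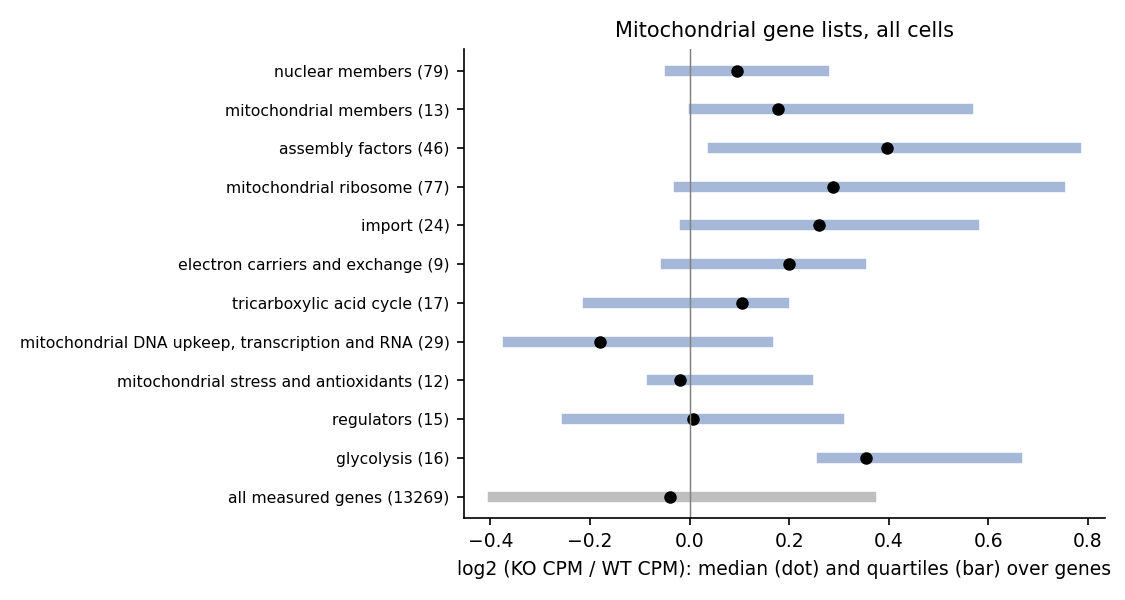
Median (dot) and quartiles (bar) of log2 KO over WT CPM over the genes of each list (vertical axis, number measured in brackets), over all cells. Assembly factors, glycolysis, mitochondrial ribosome and import genes have medians between 0.26 and 0.40, nuclear chain genes 0.09, and all measured genes −0.04.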

How the data were processed

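Colonic epithelial cells of 1 Mettl14 WT and 1 Mettl14 KO library were analysed. The authors deposited UMI counts per gene and cell, and a table of each cell's library and cluster. The submitters' processing notes name bcl2fastq, Cell Ranger and mm10; versions, cell filter, clustering and the handling of reads shared with nuclear copies are not given in the sources used here. No doublets were removed; leaving out cells in which Xist and Y-linked UMIs met was an alternative.

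Counts were summed over cells and scaled to CPM (Python 3.11.15, scipy 1.17.1). Ratios carry exact conditional binomial 95% intervals for counting error only. TMM factors came from edgeR 4.0.16. The procedure was tested on simulated data. Positions and mitochondrial sequences are from GENCODE vM21 (GRCm38), promoters from RefSeq.

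Named were all mitochondrial genes, isoform sets, complex II, the 5 highest and lowest nuclear genes, the extremes of each complex and cluster, and up to 3 genes per other list, by the interval bound nearest to equal levels. Genes named as called in a cluster or in every cluster were added after their values were seen. Members and lists were chosen with earlier results of these data known.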

Additional observations from a re-analysis of the deposited data

Results flagged for a closer look

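Cox7b2, an isoform gene of complex IV below the minimum of 50 UMIs and so outside the comparisons, had 45 UMIs in the KO library and 0 in the WT library. The WT library is the deeper of the 2. The 10 KO cells with most of these UMIs held 24.4% of them, so they were spread over many cells, at 20 UMIs in cluster 1, 13 in cluster 2, 8 in cluster 3, 3 in cluster 0 and 1 in cluster 4.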

How the results depend on the processing

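Of 16 alternatives, 14 give a value for single genes, and 8 of them for Cox4i2 and Ndufa4l2. Under those run for each, no member called higher or lower over all cells changed side, and 34 of 40 named members kept one direction; Atp5g1, Cox7a1, Sdhc, mt-Atp6, mt-Co2 and mt-Cytb did not. mt-Co1 ranged from −0.78 to −0.62, mt-Nd2 from 0.79 to 0.90 and Uqcrq from 1.03 to 1.17. Scaling moved the median of all genes by −0.07 to 0.04. The nuclear median (0.09) was 0.024 with mitochondrial and ribosomal protein genes out of the scaling, 0.13 by median ratio, 0.13 by TMM, 0.14 in cells with Xist only and 0.060 in cells with Y-linked UMIs only. The mitochondrial median (0.18) was 0.11, 0.22, 0.21, 0.14 and 0.20 under those settings, 0.19 by per-cell means, 0.19 in thinned cells, 0.19 with equal cluster weights and 0.13 in cells with at most 10% mitochondrial UMIs. Their difference (0.08) was 0.022 in those cells, −0.0026 in cells with Xist only and 0.14 in cells with Y-linked UMIs only. The cause was not tested.

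Nuclear genes counted as higher (5) numbered 3 in cells with Y-linked UMIs only, 15 at 5/4-fold and 1 at 2-fold. Those counted as lower (2) numbered 0 with a minimum of 500 UMIs, in thinned cells, without cluster 6, in cells with at most 10% mitochondrial UMIs and with Xist only, 1 with equal cluster weights and with Y-linked UMIs only (Cox6b2 in both), and 4 at 5/4-fold. In the cell subsets Cox4i2 and Ndufa4l2 had fewer than 50 UMIs. Outside cluster 6 their ratios were −2.27 and −0.33. Mitochondrial genes counted as higher (3) numbered 5 at 5/4-fold and 0 at 2-fold, and lower (1) 2 and 0. No paired analysis was possible because each genotype has 1 library and the labels give no replicate numbers. With 1 library on each side no replicate could be left out, and counting error limits the low isoforms and, in cluster 5, also other subunits such as Ndufs8 (−0.42 to 0.35) and mt-Nd6 (−0.74 to 0.40).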
